A study of Mus musculus with 36 samples.

Results

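Fibroblasts and embryonic stem cells that both lack MLL3 and MLL4 were compared, using 2 of the 36 mouse samples of the series. The libraries were chosen by label, with earlier results of these data known. The fibroblasts are embryonic (MEF), of genotype MLL3-/-;MLL4-/- (called DKO here). The embryonic stem cells (ESC) are of the same genotype, and their title carries the suffix _rp. These are the MEF and ESC libraries of that genotype deposited as FPKM (fragments scaled by transcript length and library size). MLL3 (gene Kmt2c) and MLL4 (gene Kmt2d) are related histone methyltransferases that place mono-methylation on lysine 4 of histone H3 at enhancers. MLL3-/-;MLL4flox/flox cells (called f/f here) carry the MLL4 alleles flanked by recombination sites and also lack MLL3, so every cell described lacks MLL3 and none is wild type. The f/f MEF and f/f ESC_rp libraries are given beside the DKO pair, and no library is shared by the pairs.

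Per the labels, the fibroblasts were immortalised and grown in serum, and the stem cells were grown on irradiated embryonic fibroblast feeders in serum with LIF, a cytokine that keeps mouse stem cells self-renewing. Genotype apart, the DKO MEF and DKO ESC therefore also differ in origin, medium and immortalisation, and these cannot be told apart from cell type. Nothing in the labels says how many animals or clones stand behind each library. There was 1 library a side, so each difference below is a size with no replicate error and no test, and it compares these libraries.

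Embryonic stem cells keep themselves undifferentiated through a network of transcription factors built around Pou5f1 (Oct4), Sox2 and Nanog, grow as tight colonies joined by E-cadherin, and signal through Nodal and FGF4. Fibroblasts are mesenchymal cells that secrete collagen and other matrix, pull on it through contractile actin fibres, and carry the Hox code of the body region they came from. Enhancers are the elements through which such programmes are usually switched on, and the comparison asks which of the programmes differ between the cell types when both enzymes are missing.

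The deposited values rested on 21531529 reads in DKO ESC and 38264157 in DKO MEF, and on 21573244 and 28921512 in f/f ESC and f/f MEF. A gene's difference is log2(FPKM + 1) in MEF minus ESC. "Higher" or "lower" below means higher or lower in MEF by at least 2 on that scale, which is 4-fold, and a gene counts as measured when the mean of its 2 values is at least 1.5 FPKM. This scale understates changes of genes with low values. In bulk RNA, fewer cells of a type and less RNA per cell cannot be told apart.

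Kmt2d was listed at 10.7 FPKM in DKO ESC and 23.5 in DKO MEF, against 18.7 in f/f ESC and 14.4 in f/f MEF. Kmt2c was listed at 2.82 in DKO ESC, 3.06 in DKO MEF, 3.44 in f/f ESC and 2.79 in f/f MEF. These are values over the whole gene, which include the parts outside a deletion, so they check no genotype label.

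Of 11835 measured genes, 692 were higher in DKO MEF (5.85%) and 805 were lower (6.80%). The median difference of all measured genes was -0.08 (interquartile range -0.74 to 0.63), and 7616 genes (64.4%) differed by less than 2-fold. The lower side reached further. At least 64-fold differences were seen for 29 lower genes and 1 higher gene, and at least 16-fold differences for 132 lower and 59 higher genes. Among the lower genes, 509 were under 1 FPKM in DKO MEF and 133 were listed at 0 there. Among the higher genes, 203 were under 1 FPKM in DKO ESC and 11 were listed at 0.

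**Figure D1:**
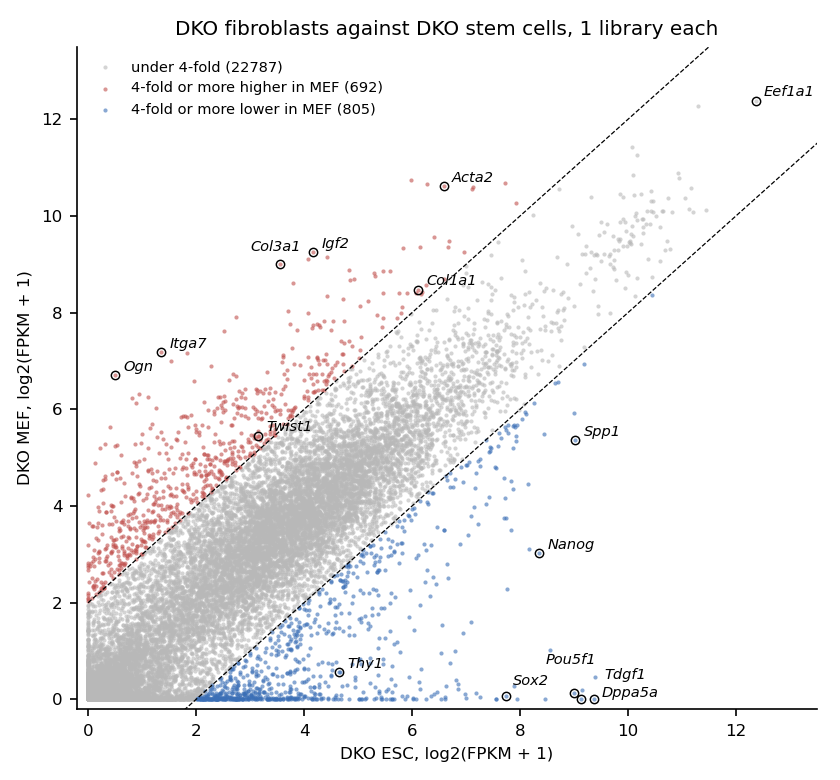
Each point is 1 gene, with log2(FPKM + 1) in DKO ESC on the horizontal axis and in DKO MEF on the vertical axis; dashed lines mark a 4-fold difference. The 692 red genes are higher and the 805 blue genes lower in MEF, and many blue genes lie on the horizontal axis because they are near 0 FPKM in MEF, Pou5f1 and Sox2 among them.

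Cell type markers were read first. All 8 stem cell markers were lower, with a median difference of -8.20, and 5 of them (Dppa5a, Esrrb, Tdgf1, Utf1 and Zfp42) were listed at 0 in DKO MEF. Pou5f1 stood at 515 FPKM in DKO ESC and 0.0906 in DKO MEF, next to 650 and 0.12 in the f/f pair. Sox2, its partner in binding DNA, stood at 214 and 0.0532, the latter resting on 5 reads. Zfp42 (Rex1), a widely used label of the undifferentiated state, stood at 352 and 0, where 3 reads would have given 0.0435 FPKM. Nanog was the exception to near absence. It stood at 326 FPKM in DKO ESC and 7.17 in DKO MEF, the latter resting on 372 reads, and at 7.26 in f/f MEF. Nanog has near-identical pseudogene copies, so its value in MEF is uncertain.

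Of the 9 fibroblast markers, 6 were higher, 1 was lower and 2 lay between, with a median difference of 2.37. Col1a2, a chain of type I collagen, stood at 62 FPKM in DKO ESC and 1720 in DKO MEF. Col3a1, which makes type III collagen, stood at 10.7 and 516. Prrx1, a homeobox factor of limb and other mesenchyme, stood at 5.67 and 102. The other 3 higher markers were Col1a1, Pdgfrb and Twist1, with differences of 2.37, 2.67 and 2.30. Thy1, a surface glycoprotein often used to sort fibroblasts, went the other way, with 24.1 FPKM in DKO ESC and 0.482 in DKO MEF. Dcn (decorin) stood at 6.51 in DKO ESC and 2.7 in DKO MEF, and Lum (lumican) at 1.57 and 2. In f/f MEF Dcn stood at 17.8 and Lum at 52.7. The DKO MEF thus carried the collagen and transcription factor markers of fibroblasts, with Thy1, Dcn and Lum at low values.

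The stem cell library also held transcripts of the fibroblast markers, and their differences are sizes against those levels. Summed over the 9 fibroblast markers, DKO ESC stood at 190 FPKM, f/f ESC at 222, DKO embryoid bodies of day 4 at 34.3 and DKO MEF at 2771, and no marker was at 0 in DKO ESC. Per marker, the level in DKO ESC was between 2.07% and 5009% of that in DKO MEF, with a median of 18.4%. The labels mention the removal of feeders for the chromatin samples and not for RNA. The part of feeder RNA in the differences below was not tested.

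**Figure D2:**
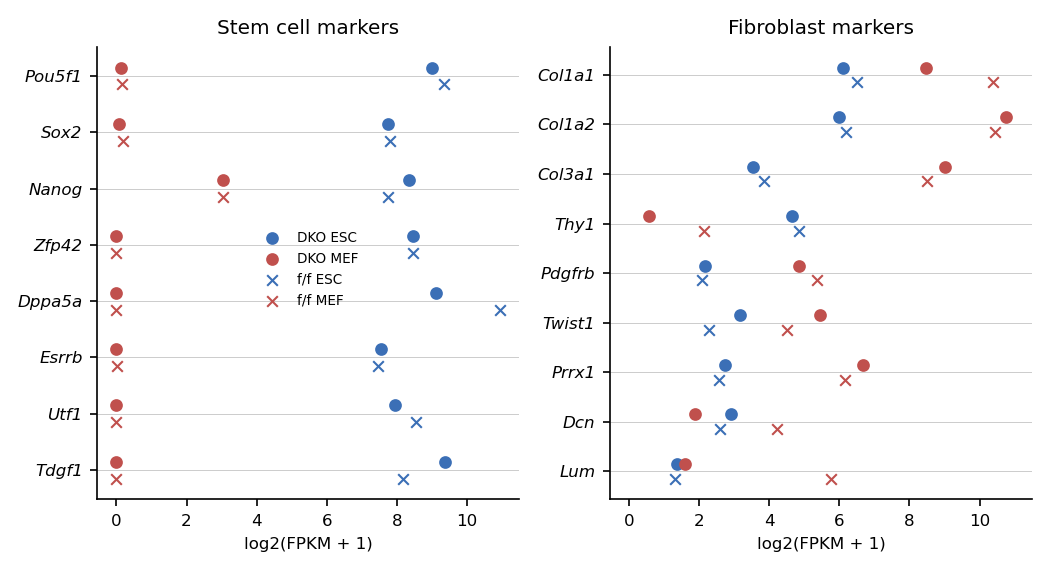
Stem cell markers (left) and fibroblast markers (right), with log2(FPKM + 1) on the horizontal axis; blue is ESC, red is MEF, circles are DKO and crosses f/f, 1 library each. All stem cell markers are near 0 in both MEF libraries except Nanog, while the fibroblast markers are above 0 in both ESC libraries, and Thy1 is lower in MEF than in ESC in both genotypes.

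The start-site sequences of the genes at both ends of the comparison shared a property that the comparison did not use. CpG dinucleotides are concentrated at the start sites of broadly active genes, and their density is given here as observed over expected, which is 1 where CpG is as frequent as the C and G content predicts. Promoters from 250 bases before to 50 bases after the start (RefSeq, GRCm38.p6) matched 490 of the 692 higher genes and 591 of the 805 lower genes. Of 32851 promoters listed, the first for each gene was used, which left 27025, and other start sites were not examined. A ratio under 0.4 was found in 117 promoters of higher genes (23.9%) and in 136 of lower genes (23%). The same held for 800 of 8227 promoters (9.72%) of measured genes within 4-fold and 13778 of the 27025 promoters used (51%). Low CpG density was therefore about as frequent among stem cell genes as among fibroblast genes, and more frequent in both than among measured genes within 4-fold. The median ratio was 0.622 for higher genes, 0.653 for lower genes and 0.796 for measured genes within 4-fold. The promoters of 4 genes are printed as examples, only the 250 bases before the start, with CpG in capitals. The 3 that differed are from the CpG-poor minority of their groups, and the fourth lies below the median of its group. Col3a1 and Acta2 were higher in DKO MEF, Pou5f1 was lower, and Eef1a1, a translation factor at 5298 FPKM in DKO ESC and 5370 in DKO MEF, did not differ.
Col3a1 (GRCm38.p6, chr1:45311288-45311537, plus strand): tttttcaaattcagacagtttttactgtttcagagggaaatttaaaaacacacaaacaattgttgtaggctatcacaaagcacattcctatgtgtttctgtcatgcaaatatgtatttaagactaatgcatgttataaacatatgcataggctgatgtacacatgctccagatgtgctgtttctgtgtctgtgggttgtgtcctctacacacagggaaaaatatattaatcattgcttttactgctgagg
Acta2 (GRCm38.p6, chr19:34255374-34255623, minus strand): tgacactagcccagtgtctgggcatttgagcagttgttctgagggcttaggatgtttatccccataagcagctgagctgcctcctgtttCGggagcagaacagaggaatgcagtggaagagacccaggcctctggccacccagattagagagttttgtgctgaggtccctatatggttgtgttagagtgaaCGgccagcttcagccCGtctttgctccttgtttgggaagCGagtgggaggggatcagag
Pou5f1 (GRCm38.p6, chr17:35505782-35506031, plus strand): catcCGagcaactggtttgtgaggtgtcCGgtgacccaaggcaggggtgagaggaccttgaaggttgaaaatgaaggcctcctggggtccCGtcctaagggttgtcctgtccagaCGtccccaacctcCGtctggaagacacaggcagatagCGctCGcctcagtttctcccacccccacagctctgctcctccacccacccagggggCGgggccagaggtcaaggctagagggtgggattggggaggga
Eef1a1 (GRCm38.p6, chr9:78481725-78481974, minus strand): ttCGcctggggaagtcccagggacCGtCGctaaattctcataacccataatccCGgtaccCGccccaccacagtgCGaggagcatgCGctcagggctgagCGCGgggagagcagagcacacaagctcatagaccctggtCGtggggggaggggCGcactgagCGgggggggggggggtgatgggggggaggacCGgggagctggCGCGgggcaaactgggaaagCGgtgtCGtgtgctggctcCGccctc
Over the full 300 bases, Col3a1 held no CpG, Acta2 held 6 (ratio 0.27), Pou5f1 held 11 (0.374) and Eef1a1 held 22 (0.697). Among motifs searched on both strands, the octamer ATGCAAAT, the sequence that Pou-family factors bind, was in few promoters. It was in 21 of 591 promoters of lower genes (3.55%) and 11 of 490 of higher genes (2.24%). Among measured genes within 4-fold it was in 97 of 8227 (1.18%), and among all promoters in 474 of 27025 (1.75%). The E-box CACGTG was in 5.92% of promoters of higher genes, 10.8% of lower genes and 10.9% of those within 4-fold. TATAAA was in 9.59% of higher, 9.81% of lower and 6.42% of genes within 4-fold. Shares for CCAAT (35.3% and 40.8%), the AP-1 site TGANTCA (5.1% and 5.41%) and the TEAD site GGAATG (14.5% and 12.4%) in higher and lower genes lay beside 39.7%, 4.22% and 11.3% in genes within 4-fold. A match describes letters in this window and says nothing of binding.

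Gene lists give the programmes behind these counts. Each list is described by how many of the members found in the files were higher or lower, and by its median difference. Members too low to be measured are included in both. Over measured genes alone, 5.85% were higher and 6.80% lower, with a median of -0.08. Without the minimum mean, the same 692 and 805 genes are set against 24284 genes, with a median of 0.00. The lists were chosen with earlier results of these data known.

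The pluripotency programme was the most uniform difference. All 16 core pluripotency genes were lower, with a median of -5.77, and their summed level went from 3243 FPKM in DKO ESC to 11.9 in DKO MEF. Tdgf1 (Cripto), a co-receptor for Nodal, headed the list with 659 FPKM in DKO ESC and 0 in DKO MEF. Dppa5a, an RNA-binding protein of pluripotent cells, stood at 559 and 0. Besides Nanog, the member with the most left in MEF was Gdf3, a Nodal-related ligand, at 25.2 FPKM in DKO ESC and 4.46 in DKO MEF. Of 16 naive pluripotency genes, 14 were lower (median -3.38). Esrrb, an orphan nuclear receptor, stood at 187 and 0, and Tfcp2l1, a factor downstream of LIF, at 83.6 and 0.0874. The exceptions were Tbx3, at 51 and 22.3, and Dppa3, which stood at 0.795 in DKO ESC, too low for a 4-fold difference on this scale. Dppa3 was at 39.1 FPKM in f/f ESC. Primed epiblast genes, which mark the later post-implantation state, were lower in 10 of 13 cases, among them Foxd3 (16.8 and 0). Their summed level was 168 FPKM in DKO ESC and 13.9 in DKO MEF, so they passed the minimum mean mainly through their ESC level. With a pseudocount of 5 FPKM in place of 1, which counts fewer genes of low level, 8 naive and 3 primed genes were lower.

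Germ cell genes were lower in DKO MEF in 8 of 15 cases, and the remaining 7 were too low to be measured. The level summed over the list was 96.4 FPKM in DKO ESC and 1.91 in DKO MEF. Members thus passed the minimum mean mainly through their ESC level. That every measured member was lower therefore says little about the group. Ddx4 (Vasa), an RNA helicase of the germ line, stood at 18.3 FPKM in DKO ESC and 0.0734 in DKO MEF. Sohlh2, a germ cell transcription factor, stood at 20.7 and 0.0223. Their f/f ESC levels were 4.91 for Ddx4 and 2.88 for Sohlh2. With the pseudocount of 5 FPKM, 2 of the list were lower.

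Epithelial genes had low values in DKO MEF. Of 24 members, 18 were lower (6 with the pseudocount of 5 FPKM), 1 lay between and 5 were too low. The median was -2.97, and the summed level was 419 FPKM in DKO ESC and 11.4 in DKO MEF. Members thus passed the minimum mean mainly through their ESC level. That nearly every measured member was lower therefore says little about the group. Cdh1 (E-cadherin), which joins stem cells in colonies, stood at 32.5 and 0.00592, a value of 1 read. Epcam, another epithelial adhesion protein, stood at 76.1 and 0.0127, and Spint2, an inhibitor of surface proteases, at 114 and 0.161. Cdh2 (N-cadherin), the mesenchymal counterpart, stood at 7.46 in DKO ESC and 20.4 in DKO MEF, so the order of the cadherin pair was reversed, although Cdh2 itself did not reach 4-fold. In f/f MEF Cdh2 stood at 68.1.

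Mesenchymal transcription factors were higher in 14 of 27 cases (8 with the pseudocount of 5 FPKM) and lower in none, with a median of 2.25. After Prrx1, the next was Zeb1, a repressor of epithelial genes, at 6.55 FPKM in DKO ESC and 84.6 in DKO MEF. Nfix, a nuclear factor I protein, stood at 3.13 and 45.1. Snai2 (Slug), which represses E-cadherin, stood at 3.65 and 48.5. Whether the levels of Zeb1 and Snai2 bear on the low epithelial values was not tested. Of the nuclear factor I family, Nfix alone was past 4-fold in DKO, while all 4 family members were past it in f/f. Nfib stood at 17.4 in DKO MEF and 16.2 in f/f MEF, and its ESC values were 4.75 and 1.07.

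**Figure D3:**
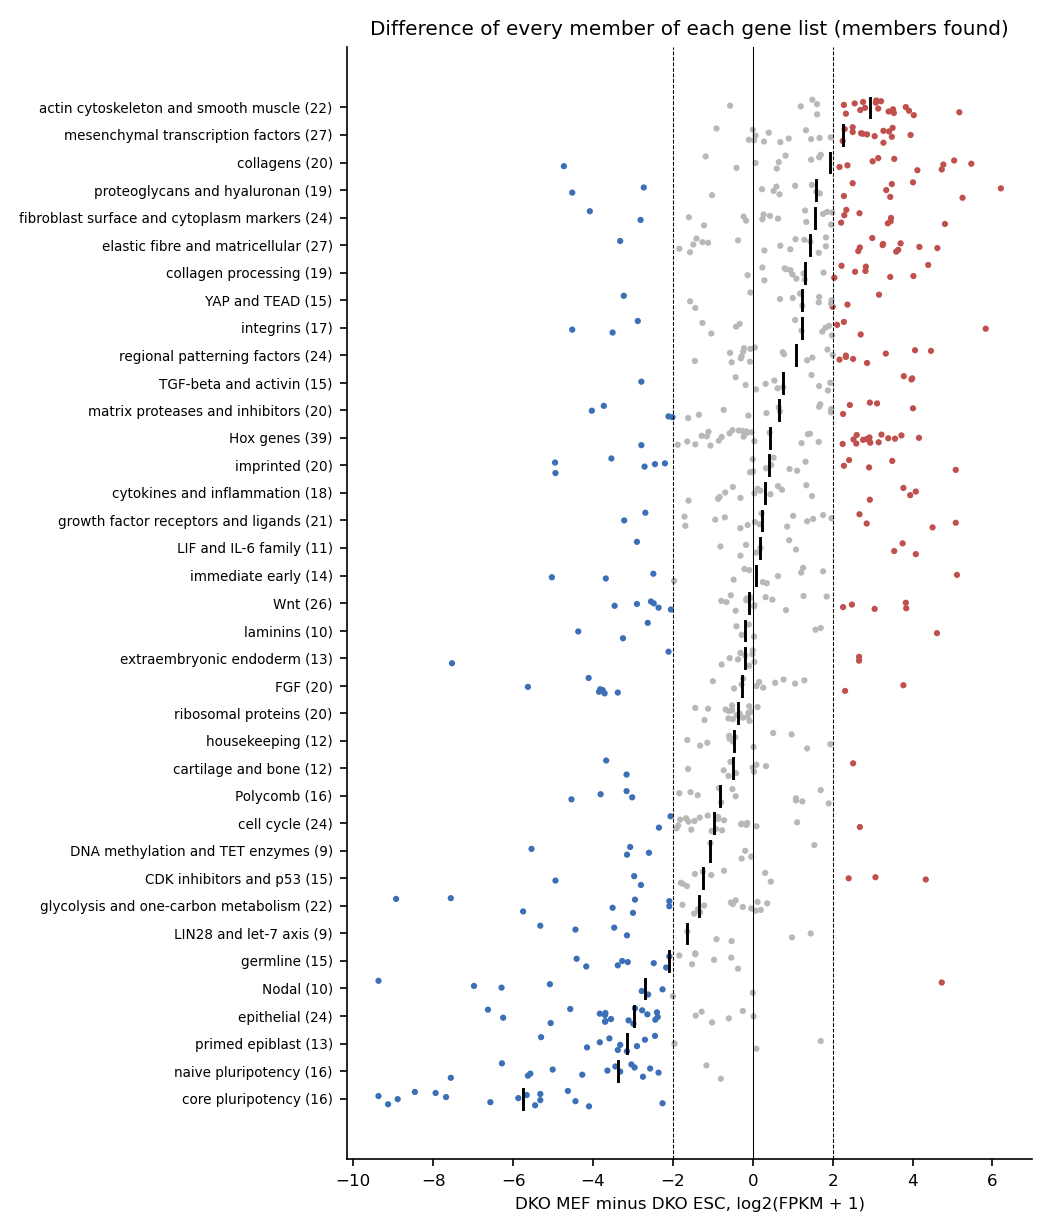
Every member of each list is a point at its DKO difference, MEF minus ESC in log2(FPKM + 1); red is 4-fold or more higher, blue 4-fold or more lower, grey between or too low, the black bar is the list's median, and numbers in brackets are members found. Lists with at least 3 members past 4-fold are shown with the ribosomal protein and housekeeping lists, and run from core pluripotency (median -5.77) to actin cytoskeleton (median 2.94).

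The contractile cytoskeleton had the highest median of the 52 lists, at 2.94. Of its 22 members, 17 were higher and none was lower, and the summed level was 943 FPKM in DKO ESC and 7668 in DKO MEF. Cnn1 (calponin), an actin-binding protein of smooth muscle, stood at 5.68 and 240. Acta2 (smooth muscle actin), the marker of contractile fibroblasts whose promoter is printed above, stood at 95.2 and 1575. Csrp1 stood at 20.5 and 323, and Myl9, a myosin light chain, at 27.9 and 411. The values in the f/f pair were 116 and 1544 for Acta2 and 8.03 and 116 for Cnn1. Srf, the transcription factor known to drive many of these genes, stood at 33.3 in DKO ESC and 22.2 in DKO MEF. Skeletal muscle actin, Acta1, stood at 33.9 and 78.2, while Des (desmin) stood at 4.32 and 0.0341.

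Fibrillar collagens and the enzymes that mature them held many higher genes. Of 20 collagen genes 10 were higher and 1 was lower (median 1.93). Col5a2, a chain of the type V collagen that is built into type I fibrils, stood at 15.8 FPKM in DKO ESC and 553 in DKO MEF. Col12a1, which coats fibrils, stood at 20.6 and 569, next to 98.6 in f/f MEF. The lower member was Col18a1, a basement membrane collagen, at 43 and 0.659. The chains of the basement membrane network, Col4a1 (27.8 and 29.2) and Col4a2 (21.8 and 34.7), were at similar levels on both sides. Of 19 collagen processing genes 8 were higher and none was lower. Sparc, a collagen-binding glycoprotein, stood at 76.7 and 1628, and was among the 10 most abundant transcripts of DKO MEF along with Col1a2. Loxl1 and Lox, which cross-link elastin and collagen, stood at 12.4 and 216, and at 39 and 432.

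Laminins, which form basement membranes, differed in both directions. Of 10 genes 3 were lower, 1 was higher, 3 lay between and 3 were too low, with a median of -0.19. Lama5 and Lama1, laminin chains of epithelial basement membranes, stood at 36.6 FPKM in DKO ESC and 0.817 in DKO MEF, and at 9.51 and 0.102. Lama4, the laminin chain of mesenchymal and vessel-wall cells, stood at 3.87 and 118. Among integrins, the laminin receptor subunit Itga6 stood at 50.1 and 1.22, while the fibronectin receptor subunit Itga5 stood at 36.3 and 86.1. Itga7, another laminin receptor subunit, had the second largest increase of the comparison after Ogn, described below, with 1.56 in DKO ESC and 145 in DKO MEF. It stood at 6.06 in f/f MEF. Over the 17 integrin genes 4 were higher and 3 lower, and 8 and 3 when each library was rescaled to a common total, which moves low genes further on this scale.

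Elastic fibre and matricellular genes were higher in 10 of 27 cases and lower in 1. Fbln5, which organises elastic fibres, stood at 2.9 FPKM in DKO ESC and 94.6 in DKO MEF, and Fbn2, a microfibril protein, at 1.41 and 42.2. Nid2 was the lower one, at 165 and 15.5. Among proteoglycans, 8 of 19 were higher and 2 lower. Ogn (osteoglycin), a small leucine-rich proteoglycan, had the largest increase of the whole comparison, a difference of 6.21, with 0.421 in DKO ESC (23 reads) and 104 in DKO MEF. Aspn (asporin), of the same family, stood at 0.849 and 69.2. The 2 lower members were Gpc3 (22.7 and 0.0346) and Omd (185 and 27.1), although Omd is itself a leucine-rich proteoglycan of connective tissue. Of the 27 elastic and matricellular genes, 8 stood higher in DKO ESC than in DKO MEF, among them Postn (51.8 and 40). Summed over that list, the level was 1469 FPKM in DKO ESC, 385 in DKO embryoid bodies and 3725 in DKO MEF.

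Matrix proteases had no common direction, with 5 of 20 higher and 4 lower. Plau (urokinase) stood at 5.11 FPKM in DKO ESC and 97.3 in DKO MEF, and Timp2, a protease inhibitor, at 31.8 and 282. Mmp3 (stromelysin) was lower, at 19.9 and 0.276, and f/f values were alike at 22.2 and 0.192. Serpine2 was lower in DKO, at 35.2 and 1.73, but stood at 28.2 and 24.2 in f/f. Mmp3 and Thy1 are transcripts usually credited to fibroblasts that were at higher levels in the stem cell library than in the immortalised fibroblasts.

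Positional genes differed in part between the cell types. Of 39 Hox genes, 15 were higher, 1 was lower, 7 lay between and 16 were too low. The median difference was 0.42, and 18 of the 39 stood higher in DKO ESC than in DKO MEF. After the rescaling to a common total, 16 were higher and 6 lower. With a pseudocount of 5 FPKM in place of 1, the higher ones numbered 4, and with a minimum mean of 5 FPKM they numbered 8. The higher ones were Hoxa2, Hoxa3, Hoxa5 and Hoxa6, Hoxb2 to Hoxb9, and Hoxc4, Hoxc5 and Hoxc6. Hoxb8 stood at 0.457 FPKM in DKO ESC and 25 in DKO MEF, and Hoxb9 was the highest in level at 39.6. No gene with a number of 10 or more was higher, and no Hoxd gene reached 4-fold. Hoxd11, at 1.03 and 1.71, had the highest MEF level of that cluster. The lower gene was Hoxa10, at 6.78 in DKO ESC and 0.125 in DKO MEF. It stood at 0.221 in f/f ESC and 3.22 in f/f MEF, the opposite order. Hoxa9 and Hoxa11 were likewise above their MEF level in DKO ESC (4.65 and 0.817; 3.07 and 0.103), and below it in f/f.

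**Figure D4:**
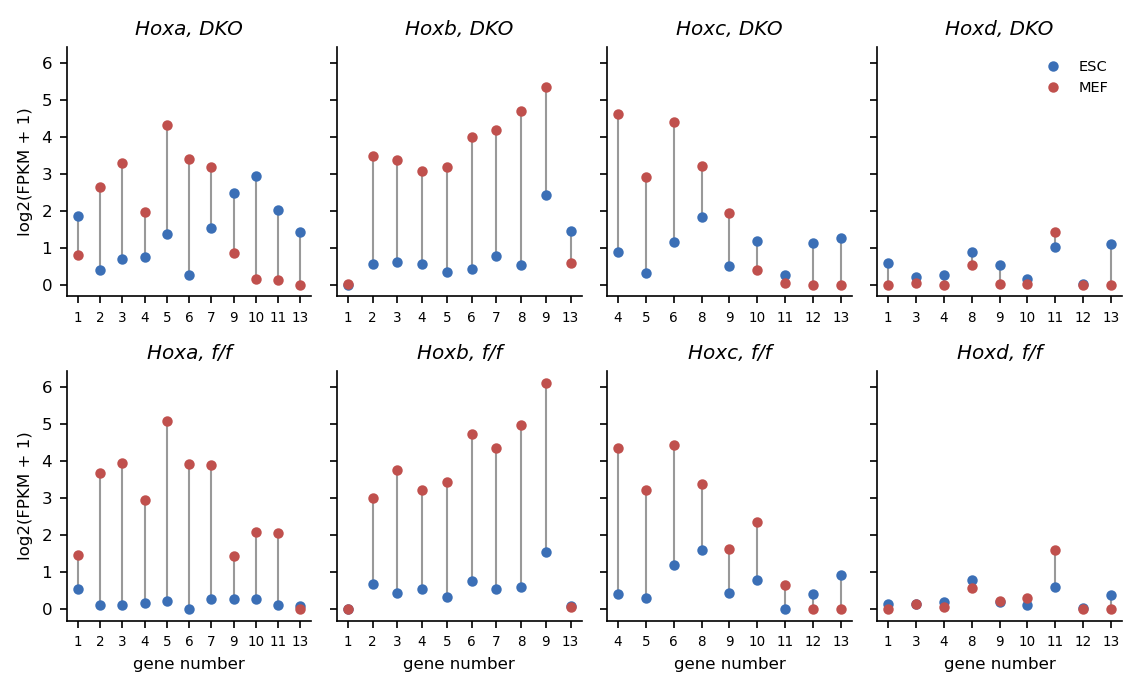
Hox genes by cluster (columns) and genotype (rows), with the gene number on the horizontal axis and log2(FPKM + 1) on the vertical axis; blue is ESC, red is MEF, and the line joins the values of a gene. In both genotypes the MEF values are above the ESC values for numbers 2 to 7 of Hoxa, 2 to 9 of Hoxb and 4 to 9 of Hoxc and low in Hoxd, and only in the DKO row are Hoxa9, Hoxa10 and Hoxa11 higher in ESC.

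Other patterning factors were higher in 8 of 24 cases and lower in none, and after rescaling higher in 11 and lower in 1. With the pseudocount of 5 FPKM, 3 were higher. Shox2, a limb and heart homeobox gene, stood at 1.22 FPKM in DKO ESC and 48.1 in DKO MEF, next to 3.21 in f/f MEF. Meis1, a cofactor of Hox proteins, stood at 1.63 and 12.2. Further single factors of families were past 4-fold as well. Foxc1 stood at 0.244 and 22.6, Nr2f1 (COUP-TFI) at 0.248 and 23.6, and Pax9 at 0.018 and 11.6. Some families had members past 4-fold in both directions, where 5.85% of all measured genes were higher and 6.80% lower. Of 17 Klf genes, Klf4, Klf5 and Klf2 were lower and Klf6 was higher (16.5 and 116). Of 19 Sox genes, Sox9 was higher (0.549 and 7.8) while Sox2, Sox3, Sox7 and Sox15 were lower. The other members of these families lay between or were too low.

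The signalling lists described below held members past 4-fold in both directions. In the Nodal pathway 7 of 10 members were lower, or 4 with the pseudocount of 5 FPKM, and 1 was higher. The ligand Nodal stood at 32.8 FPKM in DKO ESC and 0 in DKO MEF, and its feedback inhibitor Lefty2 at 128 and 0.0212. In the TGF-beta and activin list, Tgfb2, Tgfb3 and Tgfbr2 ran the other way, while 11 members lay between. Tgfb2 stood at 0.511 and 22.8, Tgfb3 at 2.74 and 58.4, and the receptor Tgfbr2 at 3.66 and 62.8, while the inhibitor Smad7 was lower at 55.4 and 7.16. In that list of 15 genes, 3 were higher and 1 lower.

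FGF ligands differed in both directions. Fgf4, the autocrine ligand of stem cells, stood at 48.5 FPKM in DKO ESC and 0 in DKO MEF, and the feedback genes Spry4 (41.1 and 1.43), Etv5 (99.2 and 5.94) and Dusp6 (36.5 and 1.86) were lower too. Fgf7, a ligand that mesenchyme sends to epithelium, was higher, at 2.09 and 41.1, and Fgf10, with the same role, at 1.96 and 13.7. Of 20 FGF genes, 7 were lower and 2 higher. The receptor Fgfr1 stood at 19.8 and 42.3. Wnt genes were mixed, with 5 of 26 higher and 6 lower, or 1 lower with the pseudocount of 5 FPKM. The receptor Fzd1 stood at 1.72 and 38 and the secreted inhibitor Sfrp2 at 4.41 and 75.8, while the receptor Fzd5 stood at 32.4 and 2.04 and the transcription factor Lef1 at 7.78 and 0.177.

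Of 21 growth factor receptors and ligands, 4 were higher and 2 lower, with a median of 0.22. Egfr stood at 1.28 FPKM in DKO ESC and 50.6 in DKO MEF, and Pdgfrb at 3.49 and 27.6. Kit, a receptor of stem and germ cells, stood at 8.33 and 0. The ligand Igf2 was at 17 in DKO ESC and 609 in DKO MEF, next to 16.3 in f/f ESC and 34.9 in f/f MEF. In the list of 11 LIF and interleukin-6 family genes, 3 were higher and 1 lower. The shared receptor Il6st stood at 17.8 and 218, Osmr at 4.73 and 76.1 and Il6 itself at 0.214 and 19.5. Socs3, the feedback inhibitor induced by LIF, was lower at 87.8 and 10.9. The LIF receptor Lifr stood at 14.8 and 8.01.

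Some metabolic genes of stem cells were lower. Of 22 genes of glycolysis and one-carbon metabolism 8 were lower and none was higher (median -1.35). Slc2a3, a glucose transporter, stood at 671 FPKM in DKO ESC and 0.376 in DKO MEF. Tdh, the threonine dehydrogenase that feeds one-carbon metabolism in mouse stem cells, stood at 187 and 0, and Gldc, of the glycine cleavage system, at 55.5 and 0.0483. Ldhb stood at 232 and 19.5 while its counterpart Ldha stood at 316 and 307. Eno1 was also past 4-fold, but it shares reads with a near-identical copy and is uncertain.

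The lists of chromatin regulators are short, and over all measured genes 5.85% were higher and 6.80% lower. Counts of 0 or 1 in such lists lie near that share and say nothing particular about a complex. None of 17 genes of the KMT2 complexes was past 4-fold, with a median of -0.59. Dpy30, a subunit shared by these complexes, stood at 40.4 FPKM in DKO ESC and 12.7 in DKO MEF, and Wdr5, another, at 58.2 and 19.6. Of 16 Polycomb genes 4 were lower: Cbx7 (51.7 and 1.27), Jarid2 (74.7 and 4.38), Pcgf6 (21.9 and 1.57) and Eed (74.2 and 8.26). After rescaling, 2 others were higher. The methyltransferase Ezh2 stood at 65.7 and 24.6. Of 9 genes of DNA methylation and its removal, 4 were lower and none was higher (median -1.06). Tet1, which oxidises methylated DNA, stood at 71.2 and 0.549, and its relative Tet2 at 39.2 and 3.78, while Tet3 stood at 2.7 and 9.79. Dnmt3b, which places new methylation, stood at 12.4 and 0.501, and its cofactor Dnmt3l at 5.04 and 0. In f/f ESC and f/f MEF, Dnmt3b stood at 74 and 0.583, and Dnmt3l at 89.2 and 0.0259. Of 14 genes of the BAF remodelling complex only Smarca2 was past 4-fold, at 1.13 and 12.1, and its alternative ATPase Smarca4 stood at 58.4 and 49.2.

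Paired genes with related products were compared by which member stood higher in each cell type. In 9 of 16 pairs the order was reversed between DKO ESC and DKO MEF, and in 11 of 16 in the f/f pair. Lmnb1 and Lmna, the lamins, gave 149 and 33.7 FPKM in DKO ESC and 29.5 and 129 in DKO MEF. Mycn and Myc gave 63.5 and 16.1 in DKO ESC and 0.0201 and 106 in DKO MEF. The cyclin pair Ccnd3 and Ccnd1 was not reversed in DKO, at 50.1 and 48.6 in ESC and 53.4 and 8.7 in MEF, and was reversed in f/f, where Ccnd1 stood at 57.2 in MEF.

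Of 15 genes of the CDK inhibitor and p53 list, 3 were higher and 3 lower (median -1.25), and the higher ones were all CDK inhibitors. Cdkn2a, which encodes the p16 and Arf inhibitors, stood at 12.1 FPKM in DKO ESC and 263 in DKO MEF, and at 136 in f/f MEF. Cdkn2c and Cdkn2b were higher too, at 0.825 and 14.4, and at 4.8 and 29.7. Cdkn1c (p57), an imprinted inhibitor, was lower at 48.7 and 0.619. Gdf15 (6.81 and 0) and Bbc3 (16.5 and 1.51), both targets of p53, were lower as well. Of 24 cell cycle genes, Ccnd2 was higher (19.5 and 130), Ccnd1 and Plk1 were lower, and the other 21 lay between.

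Some groups were alike in both cell types or absent from both. None of 20 ribosomal protein genes and none of 12 housekeeping genes was past 4-fold, with medians of -0.37 and -0.47, and 1 housekeeping gene passed it after rescaling. Keratinocyte genes were too low to be measured in all 6 cases, as were 9 of 10 primitive streak genes. Of the 10 endothelial genes, Pecam1 was past 4-fold and lower (6.8 and 0), and it is also a gene of naive stem cells. Of the 10 macrophage and blood genes, Lyz2 was lower (9.75 and 0.0247).

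The same contrast in f/f cells had 870 higher genes (7.24% of 12024 measured) and 928 lower genes (7.72%). Of the DKO calls, 470 higher genes were also higher in f/f, which is 67.9% of the DKO list and 54% of the f/f list. Likewise 538 lower genes were lower in both, 66.8% of the DKO list and 58% of the f/f list. No gene was past 4-fold in opposite directions. The difference between the genotypes was not tested, since each pair has 1 library a side.

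**Figure D5:**
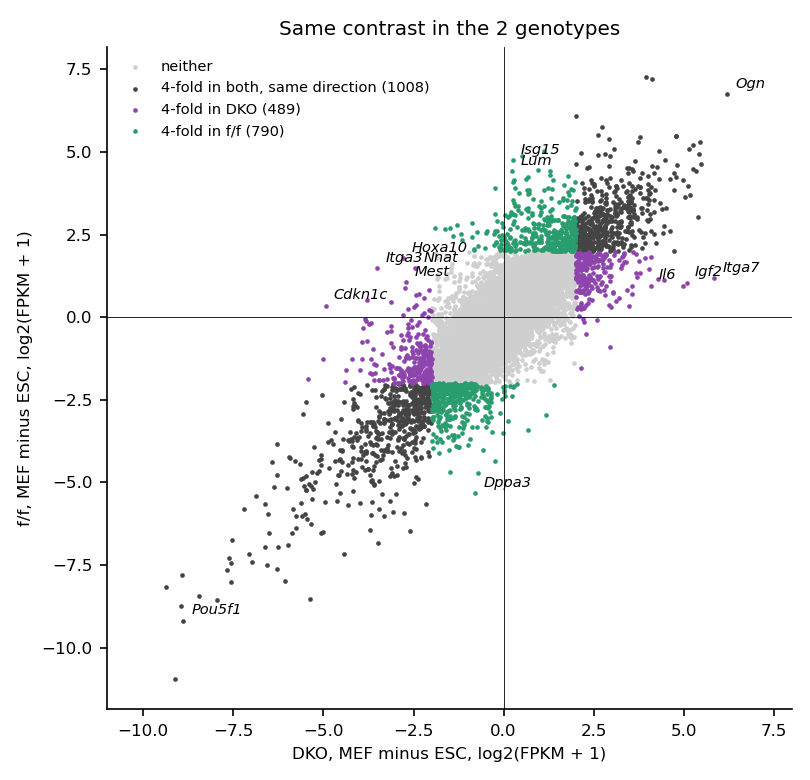
Each point is 1 gene, with the DKO difference on the horizontal axis and the f/f difference on the vertical axis, both MEF minus ESC in log2(FPKM + 1); black is past 4-fold the same way in both, purple in DKO, green in f/f. Most genes lie along the diagonal, Pou5f1 and Ogn among them, while Itga7 and Igf2 lie far to the right of it and Lum, Isg15 and Dppa3 far from it along the f/f axis.

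Genes with a large DKO difference and a small f/f one numbered 59 on the higher side and 73 on the lower side, counting f/f differences under 2-fold or in the other direction. Nr4a3, an immediate early nuclear receptor, stood at 0.247 FPKM in DKO ESC and 38.1 in DKO MEF, next to 0.148 and 1.23 in f/f. Il6 followed, with the values given above next to 0.512 and 1.94. Ndrg1, a stress-response gene, stood at 4.56 and 64.2, next to 6.69 and 13.8. Rian, a non-coding RNA of the imprinted Dlk1-Dio3 region, stood at 12.8 and 154, next to 94.1 and 120. Here the MEF levels of the genotypes were close and the ESC levels were not. Its neighbour Meg3 stood at 7.56 and 63.5, next to 36 and 46.4.

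On the lower side the genes were again of both kinds. Cdkn1c differed in both cell types, with 10.6 FPKM in f/f ESC and 13.7 in f/f MEF beside its DKO values of 48.7 and 0.619. Spp1 (osteopontin) stood at 522 in DKO ESC and 40.2 in DKO MEF, next to 299 and 267. Slc38a5, an amino acid transporter, stood at 14 and 0.014, next to 0.273 and 0.0185, so its difference lay in DKO ESC alone. The testis genes Tex13b (13.6 and 0.0247) and Hormad2 (13.2 and 0.0195) had f/f ESC values of 0.153 and 0.656.

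The other way round, 141 genes were higher in f/f with a DKO difference under 2-fold or opposite, and 95 were lower. Npnt (nephronectin), a matrix ligand, stood at 0.84 FPKM in f/f ESC and 53.3 in f/f MEF, next to 1.52 and 2.61 in DKO. Lum and Igfbp5 (0.641 and 28.3 in f/f, 0.651 and 1.01 in DKO) are further secreted proteins of connective tissue. Isg15, induced by interferon, stood at 1.96 and 79.2, next to 1.84 and 2.39, and Ifit3 at 0.673 and 29.7, next to 0.558 and 1.41. Over 21 interferon and antigen presentation genes, 8 were higher in f/f and 2 in DKO. The f/f-lower genes Dppa3 (39.1 and 0), Enpp3 (32.9 and 0.283) and Rab25 (24.2 and 0.228) were all under 1 FPKM in DKO ESC, so no difference past 4-fold could have been seen there.

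Imprinted genes gave different counts in the 2 pairs. In DKO 5 of 20 were higher and 6 lower (3 lower with the pseudocount of 5 FPKM), and in f/f 4 were higher and 2 lower. Mest stood at 39.7 FPKM in DKO ESC and 5.22 in DKO MEF, next to 16.6 and 35.8 in f/f. Peg3 stood at 30.3 and 5.81, next to 43.2 and 65.6. H19, which lies next to Igf2, stood at 42.2 and 92, next to 48 and 704. Igf2 and H19 were thus at 609 and 92 in DKO MEF and at 34.9 and 704 in f/f MEF.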

How the data were processed

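Per the labels' protocols, messenger RNA was captured by its poly(A) tail on Dynabeads before TruSeq library preparation. The authors deposited 1 FPKM value per Entrez gene for each library used, per the file headers. Build mm9, CASAVA 1.8.2 and SICER appear in the submitters' processing notes. Which aligner, annotation and strand setting were used is not given in the sources used here. Reads of antisense or overlapping genes and of close copies may be misassigned. Of 24284 genes 24203 matched the gene table by Entrez ID. The depth behind each library was recovered from the steps of low FPKM values with gene lengths taken from the read counts and RPKM values that the authors deposited for another DKO ESC library. Between 91.0% and 91.9% of low genes per library came out as whole reads within 0.02 reads. The depths are 21531529 reads (DKO ESC), 38264157 (DKO MEF), 21573244 (f/f ESC) and 28921512 (f/f MEF), and limits from 3 reads cover counting error only.

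Differences were computed as log2(FPKM + 1), MEF minus ESC, with a minimum mean of 1.5 FPKM and a threshold of 2 (python 3.11.15, pandas 2.3.3, numpy 2.4.6). The calling step was tested on simulated reads of genes well above the minimum mean in DKO ESC, with counting error only. That simulation covered neither low genes, changes near 4-fold nor variation between libraries. No p-value was computed, since each side has 1 library. Of 842 entries in 52 gene lists, 841 were found. The members, lists, marker sets and 16 gene pairs were chosen with earlier results of these data known. Named genes are the 15 largest in each direction, the 4 largest per list and up to 2 against its majority, the 2 largest per direction in 23 transcription factor families, pair members, markers, the 10 most abundant genes, and the 10 largest present in one genotype and not the other. List members named beyond that rule were chosen after their values were seen. Some genes that the rule names are not reported here. Alternatives tried were the pseudocount, the filter, the scaling and the threshold. The first-batch libraries, deposited in other units, apart from the DKO ESC library read for gene lengths, the embryoid bodies apart from the sums given, the day-20 cells and the chromatin samples were not used here.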

Additional observations from a re-analysis of the deposited data

Results flagged for a closer look

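For 13 of the genes with a gene name the difference between fibroblasts and stem cells ran in opposite directions in the genotypes, at least 4-fold one way in one and at least 2-fold the other way in the other. The difference between the genotypes was not tested. In 11 of them DKO was the lower one, and none was past 4-fold in both.

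Itga3, an integrin subunit that binds laminin, had a DKO difference of -3.51 and stood at 28.1 FPKM in f/f MEF next to 0.673 in DKO MEF. Hoxa10 differed by -2.79 in DKO, and the imprinted genes Mest and Nnat by -2.71 and -2.45. In f/f the same genes differed by 1.79, 1.07 and 1.49. These 4 were past 4-fold in DKO.

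The others were past 4-fold in f/f. Ltbp2 and Thbs2, both matrix proteins, differed by -1.49 and -1.41 in DKO and by 2.69 and 2.47 in f/f. In f/f MEF Thbs2 stood at 71.7 FPKM, next to 3.53 in DKO MEF. Mras differed by -1.90 in DKO, Steap3 by -1.63, Cd34 by -1.28, Cacna1h by -1.19 and Sema3f by -1.16. Klhl13 and Crmp1 were the reverse, with 1.18 and 1.39 in DKO and -2.96 and -2.06 in f/f.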

How the results depend on the processing

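No paired analysis was possible because each group has 1 library with FPKM values, and leaving out a replicate was not possible for the same reason. Higher and lower genes in DKO numbered 293 and 268 with a pseudocount of 5 FPKM, 2014 and 2205 at 2-fold, and 226 and 318 at 8-fold, against 692 and 805. Lower genes numbered 502 with a minimum mean of 5 FPKM and 1272 after rescaling each library to a common total (TPM scale). The other alternatives kept both counts within 1.5 times. Rescaling moved the share of higher among f/f calls from 48.4% to 58.6%, with 1552 higher and 1096 lower genes, and moved the f/f median from -0.13 to 0.18. The DKO median moved from -0.08 to at most 0.00.

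The share of DKO higher genes past the threshold in f/f too was 58.7% with a pseudocount of 5, 75.8% after rescaling, 73% at 2-fold and 55.3% at 8-fold, against 67.9%. For lower genes it was 59.9% after rescaling and 72.6% at 2-fold, against 66.8%. The 37 named genes recomputed under 5 alternatives of pseudocount and scaling were the 15 largest in each direction and marker genes already past 4-fold. None changed direction, and 184 of 185 values stayed past the threshold. Genes picked for large differences would mostly stay past it, so this says little about smaller ones. Of 180 list counts, 145 stayed within 1.5 times. The largest moves were with a pseudocount of 5, where higher Hox genes numbered 4 (against 15), lower primed epiblast genes 3 (against 10), lower epithelial genes 6 (against 18), lower germ cell genes 2 (against 8) and lower Wnt genes 1 (against 6), and at 8-fold, where lower Wnt genes again numbered 1. A minimum mean of 5 FPKM gave 8, 6, 11, 3 and 3 for these lists. Counts of core pluripotency, collagen, proteoglycan and FGF genes stayed within 1.5 times under every alternative tried. At 8-fold the share of CpG-poor promoters was 31.3% of higher and 28.3% of lower genes. With measured genes as the comparison it was 11.3%, against 51% of all promoters.

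Depth limits the low side: 3 reads correspond to 0.0723 FPKM for Tdgf1 in DKO ESC and 0.0407 in DKO MEF.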
